A study of Mus musculus with 4 samples.

Results

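The constitutive proteasome subunit genes are the genes for the standard protein-degrading particle of the cell, and they were followed here in liver across adult life. Members were the genes whose symbol is Psma, Psmb, Psmc or Psmd followed by a number only, without the immune forms Psmb8, Psmb9 and Psmb10. This rule gave 36 genes of the 18193 genes on the arrays, 16 for the core particle (Psma and Psmb) and 20 for the regulatory particle (Psmc and Psmd). A level filter at 3.74 on the log2 scale, the median over all probe sets, was passed by 34 of the 36 and by 11582 genes in all. The 4 groups were male C57BL/6J mice aged 4, 8, 13 and 21 months, fed a low-fat diet ad libitum, and no other diet or genotype is used here. Each array held pooled liver RNA from 6 mice of 1 age, so there are 4 arrays and no replicates. The comparisons ask how the liver's supply of proteasome messages differs between ages. No test between ages can be made and no p-value is given, and the spread between mice is unknown. All values are log2 expression values, where a difference of 1 is 2-fold.

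The proteasome is a barrel of stacked rings that cuts proteins tagged with ubiquitin into short peptides. The outer rings are built of alpha subunits, which gate the entrance, and the inner rings of beta subunits, of which Psmb5, Psmb6 and Psmb7 carry the cutting sites. A regulatory particle caps the barrel. Its base holds a ring of ATPases, the Psmc subunits, which unfold substrates and thread them into the barrel, and its lid holds the enzyme that removes ubiquitin. The particle clears damaged and short-lived proteins in every cell type. In bulk liver RNA, a change in the number of cells of a type and a change in RNA per cell cannot be told apart.

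The arrays were alike in overall level, with medians of 3.73 to 3.76 over 45101 probe sets. Hepatocyte markers bore out the tissue label. Of the 10 listed 8 were measured, and all 8 lay above the filter, from Hnf4a at 10.77 to 10.92 to Alb at 13.43 to 13.49, and none was 1.2-fold different between any of the ages. The 9 spike-in probe sets, bacterial and phage RNAs added to every hybridisation, deviated from their own means by -0.016, 0.047, 0.064 and -0.095 on average at 4, 8, 13 and 21 months. The spike-in shift between arrays was largest at 21 vs 13 and 21 vs 8 months, with a median of -0.16 in both.

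Differences between ages were small for nearly every subunit gene. At 21 vs 4 months 0 of the 34 members were at least 1.2-fold higher or lower, where 14.5% of all genes were. The counts were also 0 at 8 vs 4 months (10.7% of all genes), 13 vs 8 months (11.4%), 13 vs 4 months (11.3%) and 21 vs 8 months (18.9%). At 21 vs 13 months 1 member, Psmd9, was 1.2-fold lower, where 6.37% of all genes were and 15.5% passed in either direction. No member was 1.5-fold different in any comparison. Of all genes 0.855% were at 8 vs 4 months, 1.08% at 13 vs 8, 1.93% at 21 vs 13, 2.52% at 21 vs 4, 1.3% at 13 vs 4 and 3.36% at 21 vs 8 months. Over the 4 ages the highest and lowest value of a member lay 0.03 to 0.28 apart, with a median of 0.14, and the median was 0.22 over all genes. Such a range of at least 1.2-fold was seen for 1 member and for 36.5% of all genes, and one of at least 1.5-fold for 0 members and 5.41% of all genes. Subunit genes are strongly expressed, with member means of 6.03 to 10.98, and strongly expressed genes had narrower ranges in general. Among the 2868 genes with a mean of 7.58 or more, the 90th percentile of the probe sets, the median range was 0.17, and it was 0.13 for the 31 members that passed this level.

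**Figure D1:**
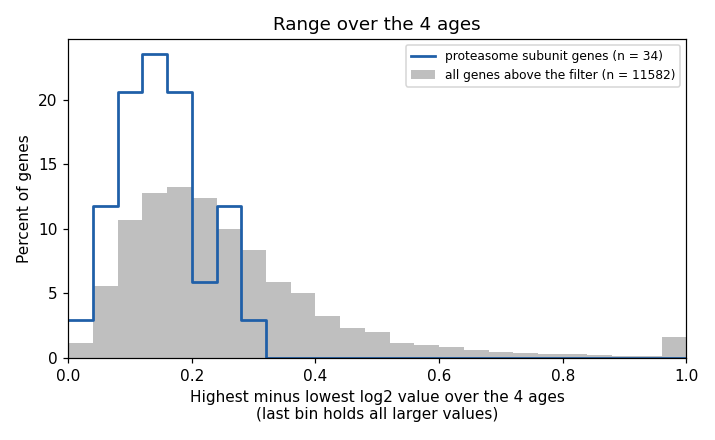
Highest minus lowest log2 value over the 4 ages for the 34 members above the filter (blue outline) and all 11582 genes above it (grey bars), as the percent of each set in bins of 0.04. The members lie between 0.03 and 0.28, while the grey bars reach far beyond, with 1.65% of all genes in the last bin.

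Small as they were, the differences leaned one way in some comparisons. At 13 vs 4 months 30 of 34 members were above 0, 2 were below and 2 did not differ, where 51.1% of all genes were above 0 and 45.5% below. The members' median was 0.095 and that of all genes 0.01. The step from 8 to 13 months had a median of 0.085, with 26 members above 0 (50.2% of all genes) and 6 below (45.9%). At 21 vs 4 months 25 members were above 0 (51.4%) and 6 below (45.2%), with a median of 0.055, which was 0.0088 under quantile normalization. In these 3 comparisons the median was above 0 under every setting tried. Strongly expressed genes also leaned above 0, though less. Among the 2868 genes at or above the 90th percentile, 54.3% were above 0 at 13 vs 4, 57.5% at 13 vs 8 and 57.7% at 21 vs 4 months. The shares of the 31 members there were 87.1%, 74.2% and 74.2%.

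The members' medians in the other comparisons were closer to that of all genes. At 8 vs 4 months 18 members were above 0 (47.5% of all genes) and 13 below (48.7%), with a median of 0.01, which was -0.0025 with all probe sets of each gene averaged. At 21 vs 13 months 14 were above 0 (50.4%) and 19 below (46.4%), with a median of -0.01. Centring each array on its median made it 0.01, but moved the median of all genes from 0.01 to 0.03 as well. The members' median minus that of all genes was -0.02 before and after, and -0.0533 to -0.01 over the settings tried. At 21 vs 8 months 22 were above 0 (51.7%) and 10 below (45.4%), with a median of 0.045, which was -0.0381 under quantile normalization, where that of all genes was -0.025. At or above the 90th percentile 64.5% of members and 63.3% of genes were above 0 at 21 vs 8 months, and both medians were 0.04.

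The share above 0 moved with the scaling of the arrays, for the members and for all genes. For 21 vs 4 months it was 73.5% of members as deposited, 85.3% with median centring and 55.9% under quantile normalization, beside 51.4%, 57.6% and 45.5% of all genes. For 13 vs 8 months it was 76.5%, 82.4% and 64.7% of members, beside 50.2%, 54.1% and 47.8% of all genes. For 13 vs 4 months it was 88.2%, 88.2% and 82.4%, beside 51.1%, 51.1% and 50.9%. The members' share was above that of all genes in each of these. For 8 vs 4 months it was 52.9%, 47.1% and 76.5% of members, beside 47.5%, 44.5% and 51.9% of all genes. For 21 vs 13 months it was 41.2%, 58.8% and 23.5%, beside 50.4%, 56.2% and 45.6%. For 21 vs 8 months it was 64.7%, 82.4% and 35.3%, beside 51.7%, 59.1% and 43.4%. In the last pair the members' share lay on either side of that of all genes, depending on the scaling. These comparisons share arrays, so the 13-month array enters several of them. The spike-in probe sets differed by a median of 0.09 at 13 vs 4 months, 0.02 at 13 vs 8 months and -0.08 at 21 vs 4 months. Their part in the members' values was not tested.

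The age of the highest value was mostly 13 or 21 months. For 16 of 34 members the 13-month value was above every other age, against 22.4% of all genes, and for 12 the 21-month value was, against 30.3%. A 13-month value above every other age was also seen for 16 of 33 respiratory complex I genes, described at the end. The highest value was at 8 months alone for 4 members (22.9% of all genes) and at 4 months alone for 1, Psma5 (18.7%). The lowest value was at 4 months alone for 14 members (21.8% of all genes) and at 8 months alone for 11 (26.2%). It was at 13 months alone for 0 members (21.2%) and at 21 months alone for 2, Psmd4 and Psmd9 (25.1%). Ties are left out of these counts, such as Psma5, lowest at 13 and 21 months, and Psmd11, lowest at 4 and 13 months. Only 2 members, Psmb1 and Psmd13, were higher at every step (4.37% of all genes), and 0 were lower at every step (3.13%). Both counts are near the share over all genes.

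**Figure D2:**
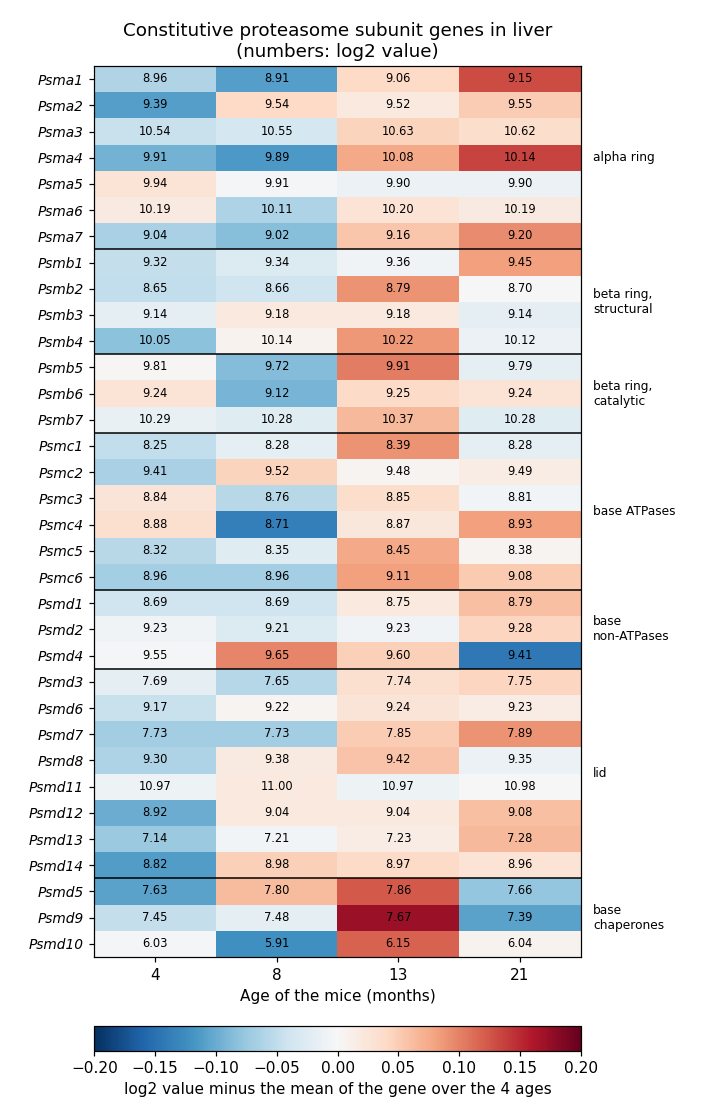
Log2 values (numbers) of the 34 members above the filter at 4, 8, 13 and 21 months, grouped by their place in the particle. Colour gives the difference from the gene's own mean over the 4 ages; red is most common at 13 and 21 months, Psmd4 is lowest at 21 months, and the base chaperones are highest at 13 months.

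Core and regulatory genes had similar medians. At 21 vs 4 months the median was 0.06 over the 14 core members above the filter and 0.055 over the 20 regulatory members. At 13 vs 4 months the medians were 0.095 and 0.105. The order of the 2 particles turned under other settings in both comparisons, with core minus regulatory medians of -0.0325 to 0.02 and -0.0304 to 0.025. The widest gap between them was at 8 vs 4 months, -0.015 for the core and 0.03 for the regulatory genes, a difference of -0.045. At 21 vs 13 months the medians were both -0.01. With all probe sets of each gene averaged they were -0.01 for the core and -0.07 for the regulatory genes. The values of core and regulatory genes overlapped in every comparison, as the plot of differences by particle shows.

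**Figure D3:**
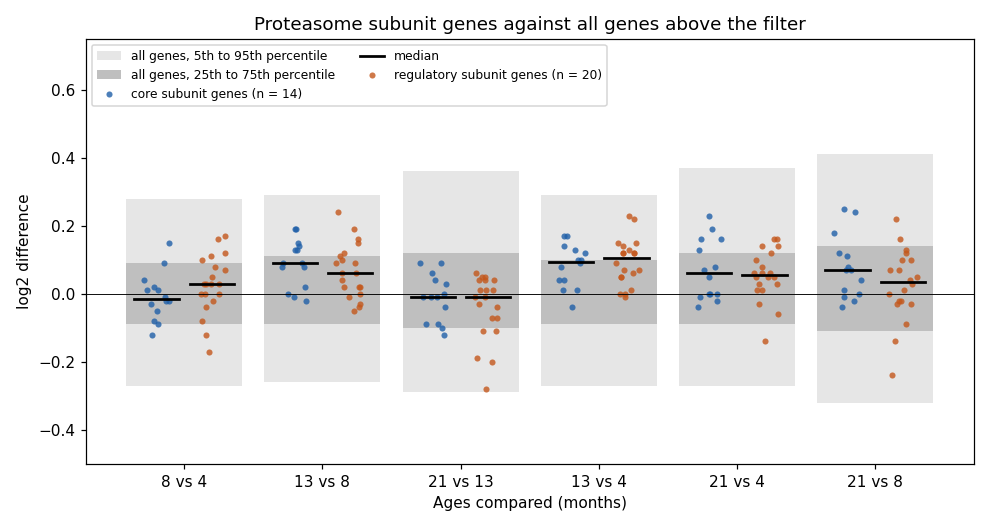
Log2 differences between ages for core (blue, n = 14) and regulatory (orange, n = 20) subunit genes, with black bars at the medians and grey bands for all genes above the filter. The members lie inside the 5th to 95th percentile of all genes (-0.27 to 0.37 at 21 vs 4 months). Both medians lie above 0 at 13 vs 4, 13 vs 8, 21 vs 4 and 21 vs 8 months.

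The alpha ring held the core genes with the largest differences at 21 vs 4 months. Over its 7 members above the filter the median at 21 vs 4 months was 0.16, with 5 above 0, 1 below and 1 at 0. Psma4, an alpha ring subunit, was at 9.91, 9.89, 10.08 and 10.14 at 4, 8, 13 and 21 months. Its values at 13 and 21 months lay above those at 4 and 8 months, and the 21 vs 4 months difference of 0.23 was the largest of all members. Psma4 had 1 probe set, so no other probe set bears on it. Psma1, another subunit of the ring, was at 8.96, 8.91, 9.06 and 9.15. It had the next largest difference, 0.19, which was 0.113 as the mean over its 4 probe sets. Psma7 was at 9.04, 9.02, 9.16 and 9.20, with the same order of ages as Psma1 and Psma4, and another probe set of it gave 0.05 at 21 vs 4 months. Psma2 was at 9.39, 9.54, 9.52 and 9.55, so it was low at 4 months only. Psma7 and Psma2 were both higher by 0.16 at 21 vs 4 months.

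The remaining alpha ring genes hardly differed. Psma5 was at 9.94, 9.91, 9.90 and 9.90, and Psma6 at 10.19, 10.11, 10.20 and 10.19. Another probe set of Psma5 above the filter differed by 0.07 at 21 vs 4 months, against -0.04 for the probe set used. Psma6 was read with a probe set that can match several transcripts. Another probe set of Psma6, at 9.53, 9.57, 9.59 and 9.58, was lowest at 4 months. Psma3 was at 10.54, 10.55, 10.63 and 10.62. Its other probe set, dimmer at 4.83, 4.39, 4.61 and 4.50, went the opposite way by -0.33 at 21 vs 4 months, so the direction of Psma3 is not settled. Psma8, the alpha subunit of the testis form of the particle, lay below the filter at 2.99, 2.89, 2.91 and 3.07. It cannot be told from background in this tissue. The upstream sequence of Psma4 is given as that of the member with the largest difference. It is the 250 bases before the RefSeq gene start, at chr9:54950609-54950858 in GRCm38.p6, + strand, and holds neither of the motifs described below.
Psma4: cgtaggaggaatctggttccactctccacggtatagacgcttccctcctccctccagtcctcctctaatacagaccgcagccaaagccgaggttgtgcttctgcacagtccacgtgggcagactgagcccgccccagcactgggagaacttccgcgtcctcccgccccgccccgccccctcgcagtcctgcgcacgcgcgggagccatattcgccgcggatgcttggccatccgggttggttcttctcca

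The catalytic beta genes had nearly the same values at 21 and 4 months. Psmb5, the subunit with the chymotrypsin-like site, was at 9.81, 9.72, 9.91 and 9.79. Psmb6, with the caspase-like site, was at 9.24, 9.12, 9.25 and 9.24. Psmb7, with the trypsin-like site, was at 10.29, 10.28, 10.37 and 10.28. All 3 were highest at 13 months, and at 8 months none of the 3 was above any other age. Their 21 vs 4 months differences were -0.02, 0.00 and -0.01. From 8 to 13 months they were higher by 0.19, 0.13 and 0.09.

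The structural beta genes form the rest of the inner rings and have no cutting site. Psmb1 was at 9.32, 9.34, 9.36 and 9.45, higher at every step, and its 21 vs 13 months difference of 0.09 was the largest of the members together with that of Psma1. Another probe set of Psmb1 went the opposite way at 13 vs 8 months, by -0.37. Psmb3 was at 9.14, 9.18, 9.18 and 9.14, among the narrowest ranges. Psmb2 was at 8.65, 8.66, 8.79 and 8.70, and Psmb4 at 10.05, 10.14, 10.22 and 10.12. The last pair shared a 13-month maximum with the catalytic genes, but another probe set of Psmb4, at 9.47, 9.29, 9.27 and 9.46, was lowest at 13 months. Psmb11, the thymus form of the chymotrypsin-like subunit, lay below the filter at 3.23, 3.25, 3.28 and 3.33.

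The immune counterparts of the catalytic genes differed far more between ages. Immune cells, and other cells under interferon, build Psmb8, Psmb9 and Psmb10 into new particles in place of Psmb5, Psmb6 and Psmb7, which changes the peptides offered to T cells. Psmb8 was at 6.86, 6.69, 7.33 and 7.66, Psmb9 at 6.10, 5.81, 6.45 and 6.92, and Psmb10 at 7.21, 6.97, 7.66 and 7.80. Each was lowest at 8 months and highest at 21 months. They were 1.74-fold, 1.77-fold and 1.51-fold higher at 21 vs 4 months. Set against the constitutive gene of the same place in the ring, the log2 differences at 21 vs 4 months were larger by 0.82 for Psmb8 over Psmb5, 0.82 for Psmb9 over Psmb6 and 0.60 for Psmb10 over Psmb7. At 13 vs 4 months those gaps were 0.37, 0.34 and 0.37. Psme1, a subunit of the activator cap that interferon also induces, was at 9.13, 9.09, 9.50 and 9.58. All 4 of these genes were at least 1.2-fold higher at 21 vs 4 months, where 9.01% of all genes were. A second probe set of Psmb8, below the filter, differed by 0.12. Psme2 was not analysed here because its probe set is annotated to several symbols.

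Macrophage and Kupffer cell markers were also lower at 8 months and higher at 21 months. They were like the immune genes at 13 vs 8 months and less so at 13 vs 4 months. All 12 were measured, and their mean log2 level was 7.321, 6.861, 7.495 and 8.140 at the 4 ages. At 21 vs 4 months 12 of 12 were at least 1.2-fold higher (9.01% of all genes were), and at 8 vs 4 months 10 of 12 were at least 1.2-fold lower (5.30%). At 13 vs 4 months 2 of 12 were at least 1.2-fold different, both higher, and 3 were below 0, with a median of 0.145, where all 4 immune genes were 1.2-fold higher with a median of 0.41 (11.3% of all genes passed either way). Marco differed by -0.29 at 21 vs 13 months. Of the neutrophil markers above the filter, S100a8 and S100a9 were higher by 1.35 and 1.45 at 21 vs 4 months, and Ngp and Elane differed by 0.19 and -0.11. Hepatocyte markers differed by a median of -0.01. For 5 B and plasma cell markers above the filter the median was 0.19, with Ighm at 2.84, Jchain at 1.58 and the others at 0.06 to 0.19. The medians were 0.04 for 4 T and NK cell markers, 0.05 for 7 sinusoidal, 0.26 for 7 stellate and 0.205 for 2 bile duct markers above the filter. The part of these cells in the values of the immune or the constitutive genes was not tested.

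**Figure D4:**
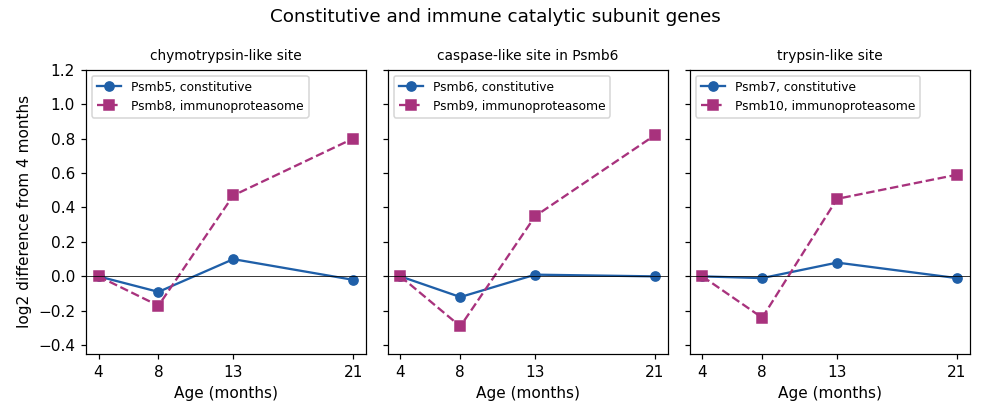
Log2 difference from 4 months of the 3 constitutive catalytic genes (blue circles) and of the immune subunit gene that takes the same place (purple squares) at 4, 8, 13 and 21 months, 1 array per age. The constitutive genes stay between -0.12 and 0.10, and the immune genes reach 0.80, 0.82 and 0.59 at 21 months.

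Upstream sequences of Psmb5 and Psmb6 are shown because the catalytic genes are the members the comparison with the immune forms turns on. They are also shown because both hold the motif TGACNNNGC. Psmb7 is not among the members with a match, and its sequence is not printed. This motif is the core of the antioxidant response element, which Nfe2l1 and Nfe2l2, the transcription factors known to drive proteasome genes, can bind. The capitals mark the match. Psmb5 is read at chr14:54617996-54618245 on the - strand and Psmb6 at chr11:70525107-70525356 on the + strand, each the 250 bases before the RefSeq gene start in GRCm38.p6, 5′ to 3′ on the gene's strand.
Psmb5: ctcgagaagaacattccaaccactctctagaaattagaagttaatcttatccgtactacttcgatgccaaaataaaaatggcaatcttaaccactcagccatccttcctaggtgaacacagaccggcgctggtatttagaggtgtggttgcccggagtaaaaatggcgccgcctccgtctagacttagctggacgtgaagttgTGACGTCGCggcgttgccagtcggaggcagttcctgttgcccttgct
Psmb6: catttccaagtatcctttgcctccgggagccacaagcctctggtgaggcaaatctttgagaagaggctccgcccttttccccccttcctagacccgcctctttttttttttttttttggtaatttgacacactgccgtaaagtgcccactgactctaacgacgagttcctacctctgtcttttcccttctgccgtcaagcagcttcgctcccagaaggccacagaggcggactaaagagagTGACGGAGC

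In Psmb5 the match lies 47 to 39 bases before the start and in Psmb6 9 to 1 bases before it. RefSeq promoter windows were found for 29 of the 36 members, 31 windows in all. On either strand 5 of 31 held TGACNNNGC, or 16.1%, against 10.2% of all 32851 windows. Beside Psmb5 and Psmb6 these were Psmc6, Psmd9 and Psmd12, whose 21 vs 4 months differences were 0.12, -0.06 and 0.16. CCAAT, the motif bound by NF-Y, was held by 12 of 31, or 38.7%, against 33.8% of all windows. No window printed holds both motifs. A match of letters does not show binding. Nfe2l1 itself was at 6.61, 6.62, 6.61 and 6.51, and Nfe2l2 at 8.54, 8.36, 8.50 and 8.50. Neither was 1.2-fold different between any pair of ages. A second, dimmer probe set of Nfe2l2 was higher by 0.48 at 21 vs 4 months, so its direction is not settled. Nfe2l3 lay below the filter, and Ngly1, the enzyme that processes Nfe2l1, differed by 0.07 at 21 vs 4 months.

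The 6 ATPases of the base differed little between ages. Psmc1 was at 8.25, 8.28, 8.39 and 8.28, and Psmc5 at 8.32, 8.35, 8.45 and 8.38. Psmc6 was at 8.96, 8.96, 9.11 and 9.08. These 3 were highest at 13 months, as was Psmc3 at 8.84, 8.76, 8.85 and 8.81. Psmc4 was at 8.88, 8.71, 8.87 and 8.93. Its 8 vs 4 months difference of -0.17 was the lowest of all members, but its other probe set was at 8.16, 8.23, 8.25 and 8.21 and did not show the low 8-month value. Psmc2 was at 9.41, 9.52, 9.48 and 9.49, low at 4 months only. Over the 6 ATPases the median was 0.055 at 21 vs 4 months and 0.10 at 13 vs 4 months.

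Psmd4 had the lowest 21 vs 4 months difference of all members. It encodes a receptor that captures ubiquitin chains, and it was at 9.55, 9.65, 9.60 and 9.41. The 21-month value lay below all other ages, and the differences were -0.14 at 21 vs 4 months and -0.19 at 21 vs 13 months. Its other probe sets were at 9.15, 9.17, 9.23 and 9.08 and at 5.44, 5.64, 5.56 and 5.33. Both were also lowest at 21 months, by -0.07 and -0.11 against 4 months. Over the settings tried the 21 vs 4 months difference of Psmd4 was -0.188 to -0.107. The spike-in probe sets were lower at 21 months too, by a median of -0.08 against 4 months and -0.16 against 13 months. Whether that shift has a part in the Psmd4 values was not tested. Psmd1 and Psmd2, the large scaffold subunits of the base, were at 8.69, 8.69, 8.75 and 8.79 and at 9.23, 9.21, 9.23 and 9.28. Both were highest at 21 months, opposite to Psmd4. A second probe set of Psmd2, below the filter, differed by -0.28 at 21 vs 4 months.

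The upstream sequence of Psmd4 is given as that of the member with the lowest 21 vs 4 months difference. It is read at chr3:95042615-95042864 in GRCm38.p6 on the - strand, 250 bases before the RefSeq gene start, and the capitals mark CCAAT, here on the opposite strand, 95 to 91 bases before the start. It holds no TGACNNNGC.
Psmd4: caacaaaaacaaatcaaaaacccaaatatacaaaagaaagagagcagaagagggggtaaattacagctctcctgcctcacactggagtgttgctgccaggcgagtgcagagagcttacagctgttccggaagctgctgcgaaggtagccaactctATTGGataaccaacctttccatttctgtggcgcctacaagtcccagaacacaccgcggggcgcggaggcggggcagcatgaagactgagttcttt

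The 8 lid genes with a Psmd symbol were all above their 4-month values at 21 months, by 0.01 to 0.16 (51.4% of all genes were above 0). Sem1, a lid gene outside the naming rule, is counted below with the other regulators. It was at 9.29, 9.18, 9.22 and 9.27, a difference of -0.02 at 21 vs 4 months. Psmd14, the enzyme that removes ubiquitin chains as a substrate enters, was at 8.82, 8.98, 8.97 and 8.96. It was low at 4 months and level afterwards, and its 8 vs 4 months difference of 0.16 was among the largest of the members. Psmd12 was at 8.92, 9.04, 9.04 and 9.08, and Psmd13 at 7.14, 7.21, 7.23 and 7.28, also lowest at 4 months. Psmd7, the partner of Psmd14, was at 7.73, 7.73, 7.85 and 7.89. Psmd11 was at 10.97, 11.00, 10.97 and 10.98, the narrowest range of all members at 0.03, and was read with a probe set that can match several transcripts. Psmd6 was at 9.17, 9.22, 9.24 and 9.23, Psmd3 at 7.69, 7.65, 7.74 and 7.75, and Psmd8 at 9.30, 9.38, 9.42 and 9.35. The lid is not settled gene by gene. Other probe sets of Psmd7 and Psmd13, dimmer than those used, differed by -0.30 and -0.17 at 21 vs 4 months, and without probe sets that can match several transcripts Psmd11 was at -0.07.

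The 3 chaperones that carry Psmd symbols help assemble the base and then leave it, so they are not subunits of the finished particle. Psmd5 and Psmd9 had the largest 13 vs 4 months differences of all members. Psmd9 was at 7.45, 7.48, 7.67 and 7.39, Psmd5 at 7.63, 7.80, 7.86 and 7.66, and Psmd10, also called gankyrin, at 6.03, 5.91, 6.15 and 6.04. All 3 were highest at 13 months, by 0.22, 0.23 and 0.12 over 4 months, and at 21 months they were back within 0.06 of the 4-month value. The -0.28 of Psmd9 at 21 vs 13 months, 0.824 of its level, was the lowest difference of any member in that comparison, and its 21 vs 8 months difference was -0.09. Another probe set of Psmd9, at 4.50, 4.87, 4.89 and 4.74, also had its maximum at 13 months but was higher by 0.24 at 21 vs 4 months. The 5 chaperones of the core particle, Psmg1 to Psmg4 and Pomp, differed less. Their median was 0.06 at 13 vs 4 months, and none was 1.2-fold different in any comparison.

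Other genes of the pathway were measured in part. Of the 6 other regulators above the filter 0 were 1.2-fold different at 21 vs 4 months, where 14.5% of all genes were, with a median of -0.055. A count of 0 among so few is near that share. Psmf1, an inhibitor of the core particle, was higher by 0.17, and the deubiquitinase Usp14 differed by -0.14. Of 12 listed genes for ubiquitin, its activation and its delivery 6 were measured: Uba6, Rad23b, Ubqln1, Ubqln2, Ubqln4 and Vcp. No gene that codes for ubiquitin was among them, and Uba6 was the only activating enzyme. At 21 vs 4 months 0 of the 6 were 1.2-fold different, also near the 14.5% of all genes, with a median of -0.05. At 21 vs 13 months 2 of the 6, both shuttle genes, were, beside 15.5% of all genes: Ubqln2 higher by 0.31 and Ubqln4 lower at -0.28.

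Several probe sets of a gene can be set side by side. They read other stretches of the transcripts, and many are far dimmer, so a disagreement need not be measurement error. The 36 members had 74 probe sets, and 17 members had at least 1 further probe set above the filter, 24 in all. At 21 vs 4 months 13 of the 24 had the same sign as the probe set used, 8 the opposite sign, and 3 pairs held a 0. The median disagreement between the differences was 0.08, and the largest was 0.46, for Psmd7. At 13 vs 4 months the same sign was seen for 12 of 24, the opposite sign for 8, and 4 pairs held a 0. The median disagreement there was also 0.08. Probe sets below the filter for Psmc2, Psmd2 and Psmd11 also went against the probe set used by 1.2-fold or more in at least 1 comparison. The sign of a difference of a few hundredths in 1 probe set is not resolved on these arrays.

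**Figure D5:**
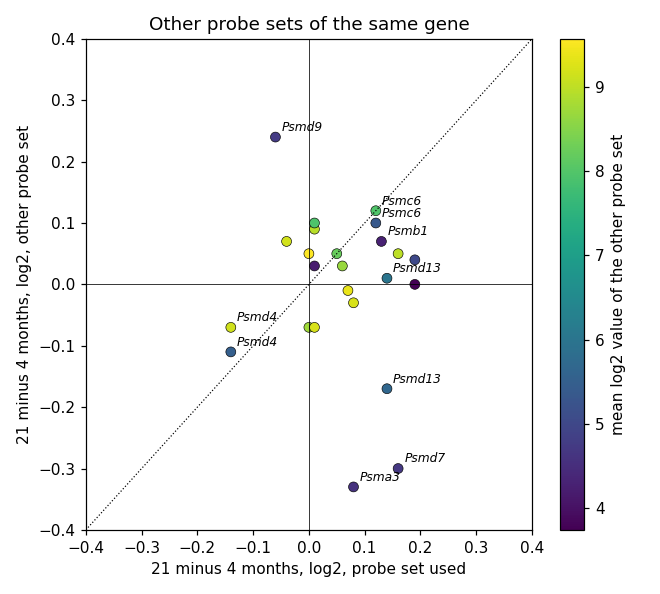
Log2 difference at 21 vs 4 months of the 24 other probe sets above the filter (vertical) against the probe set used for the same gene (horizontal); colour is the mean log2 value of the other probe set and the dotted line marks equal differences. Psmd4 lies below 0 on both axes, while Psma3, Psmd7 and Psmd13 have probe sets of opposite sign.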

How the data were processed

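Liver RNA was measured on 4 oligonucleotide arrays, 1 pool of 6 mice per age. The authors deposited log2 values for 45101 probe sets, made with RMA per the submitters' processing notes. RMA aligns the distributions of arrays, so a shift of most genes would not be visible. Probe sets with 1 gene symbol in the platform annotation were used (34945), with the highest mean probe set per gene. Genes with a mean of at least 3.74 were kept.

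Members and lists were chosen with earlier results of these data known. Differences were counted at 1.2-fold and 1.5-fold. All members are described. Values at the 4 ages are given for catalytic subunits, ATPases, Psmd4, Psmd14, the 3 highest and lowest differences in 4 comparisons and the 5 widest and narrowest ranges; further members were named to complete their group. Promoters come from RefSeq (GRCm38.p6). All 36 members matched the RefSeq gene table. Alternatives were all probe sets averaged, no multi-transcript probe sets, no or higher filters, median centring, quantile normalization, cyclic loess, means for medians, 1.5-fold, regulatory genes without chaperones and each age left out. Counting steps were tested on simulated data. The filter at the 90th percentile was added after the data were seen. Python 3.11.15, pandas 2.3.3, R 4.3.3 and limma 3.58.1 (alternative normalizations only) were used.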

Additional observations from a re-analysis of the deposited data

How the results depend on the processing

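Of 180 recomputed values, 169 stayed within 0.05 log2, or within 1.5 times for counts. This limit is of the size of the members' medians themselves, -0.01 to 0.095, so the count says little about them. Some settings could not alter a value. The filter at the 75th percentile kept the same 34 members, and a count of 0 at 1.2-fold has to be 0 at 1.5-fold. The members' median stayed above 0 under every setting tried at 13 vs 4 months (0.06 to 0.095), 13 vs 8 months (0.0462 to 0.095) and 21 vs 4 months (0.0088 to 0.075). It took either sign at 8 vs 4 months (-0.0025 to 0.0326), 21 vs 13 months (-0.05 to 0.01, the highest with median centring, which shifts all genes alike) and 21 vs 8 months, where it was 0.045 as reported, -0.0381 with quantile normalization and -0.0089 with cyclic loess. Core minus regulatory medians at 21 vs 13 months were 0.06 with the mean over all probe sets. The count past 1.2-fold at 21 vs 13 months was 0 with that mean, with median centring, with the 90th percentile filter and at 1.5-fold. It was 1 at 13 vs 4 months with the mean over all probe sets. At 21 vs 8 months it was 2 with median centring and 1 with quantile normalization or cyclic loess. The median range was 0.10 to 0.15, the lowest and highest over all settings, including each age left out. Leaving out an age can only narrow a range or keep it, and the 0.10 came from those settings. With all 4 ages the median range was 0.1231 to 0.15. Of 210 values of single genes at 21 vs 4 months 30 moved by 0.05 or more. No paired analysis was possible because each age has 1 array. With 4 arrays and no detection calls, differences of a few hundredths are not resolved.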

Other observations

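Genes named as subunits of respiratory complex I, another large constitutive assembly, were set beside the proteasome genes. This choice was made after the data were seen. The set goes by name only, and Ndufa4 in it is now placed in a different respiratory complex. Of 34 genes named Nduf with a letter and a number 33 passed the filter, and their ranges over the 4 ages had a median of 0.11 (0.02 to 0.24), against 0.14 for the 34 proteasome members. The complex I genes had a median of 0.02 at 13 vs 4 months, with 20 of 33 above 0. The proteasome members had 0.095 with 30 of 34 above 0, and 51.1% of all genes were above 0. At 13 vs 8 months the medians were 0.07 and 0.085, with 29 of 33 and 26 of 34 above 0 (50.2% of all genes). At 13 months 16 of 33 complex I genes were above every other age, as were 16 of 34 proteasome members (22.4% of all genes). At 8 months 18 of 33 complex I genes were below every other age, against 11 of 34 proteasome members and 26.2% of all genes. The difference between the sets was not tested.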
